A study of Mus musculus with 12 samples.

Results

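The genes described here are 40 defence and coagulation genes whose proteins are secreted, mostly by the liver: 16 acute phase genes, 12 coagulation genes and 12 complement genes. They were taken by symbol from a table of 24062 genes, and all 40 were found in it. RNA was sequenced in 12 poly(A) libraries, from liver and gastrocnemius (a calf muscle) of 6 female C57BL/6N mice on chow. The wild type (WT) animals, numbered 6, 8 and 9 in the labels, were 9.0, 9.0 and 7.4 weeks old. The Mars2 R135W/R135W animals, which carry a missense change on both copies of the gene, were numbered 5, 7 and 12 and were 9.0, 7.4 and 8.6 weeks old. Mars2 is the nuclear gene of the synthetase that charges mitochondrial methionine tRNA. A liver and a muscle library with the same number, and the same age, were read as coming from 1 animal. Each animal then gave 1 liver and 1 muscle library, so there are 4 groups of 3 libraries. How the allele was made and whether the groups were littermates are not given in the sources used here, and the comparison is of whole tissue.

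The acute phase response is the change in hepatocyte secretion that follows injury or infection. Interleukin-6, acting through STAT3, and interleukin-1, acting through NF-kB and C/EBP factors, raise serum amyloid A, orosomucoid, haptoglobin, hemopexin and fibrinogen, while other plasma proteins fall. Complement is a cascade of plasma proteins entered through C1q (classical), mannose-binding lectins (lectin) or spontaneous C3 turnover (alternative), all meeting at C3. Hepatocytes make most complement and clotting proteins, but C1q comes mainly from macrophages, which in liver are Kupffer cells and recruited monocyte-derived cells.

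Total counts per library ran from 20751583 to 30460237. Levels are CPM, counts relative to the TMM-scaled library size within a tissue, and every change is a log2 fold change of R135W minus WT unless stated. Mars2 RNA itself was at 2.30 to 3.67 CPM in the liver libraries and 8.59 to 12.6 CPM in muscle. A missense change need not alter that level, so it does not check the labels. Hepatocyte markers were present in every liver library, and their summed level was 107990 to 108750 in WT and 84519 to 92028 CPM in R135W. The liver library of R135W animal 7 stood apart. The ribosomal RNA gene Rn45s took 9.13% of its counts, against 1.83% to 3.20% in the other liver libraries. Its chi-squared per degree of freedom against the other R135W livers was 110 and 118, where the other pairs of replicate livers gave 41.7 to 66.4. It was the highest liver library for 16 of the 40 members.

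In liver, the members ranged in mean WT level from 2.96 CPM (Saa3) to 8917 CPM (C3). They took 4.08% to 4.38% of all counts in WT and 4.44% to 5.11% in R135W, ranges that do not overlap. Without the 5 most abundant genes of each library the shares were 4.66% to 5.08% in WT and 4.66% to 5.48% in R135W. The low end of R135W is animal 12, the only library where the member C3 was among those 5 genes and left out. The other R135W livers were at 5.26% and 5.48%, so this overlap compares different genes and shows no loss of the difference. After TMM scaling the summed levels did overlap, at 41546 to 46589 in WT and 43141 to 47551 CPM in R135W. Per kilobase of exon, the highest WT levels were those of the fibrinogen chains Fgb and Fgg, at 2391 and 2023 CPM per kb, then the haem carrier Hpx at 1959, the central complement component C3 at 1737 and the haemoglobin binder Hp at 1730. The lowest were the membrane attack component C6 at 6.65 and Saa3 at 5.57 CPM per kb. In R135W livers Hpx held the first place at 3144 CPM per kb, followed by Fgb at 2336 and Fgg at 1982. For those 18 the highest of the 6 liver libraries was under 1.5 times the lowest, and for 11 it was at least 2 times the lowest. The members with the widest spread were Saa1, Saa2, Orm2, Orm3 and Lcn2, whose variation between replicates exceeded that of 95% of tested genes.

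**Figure D1:**
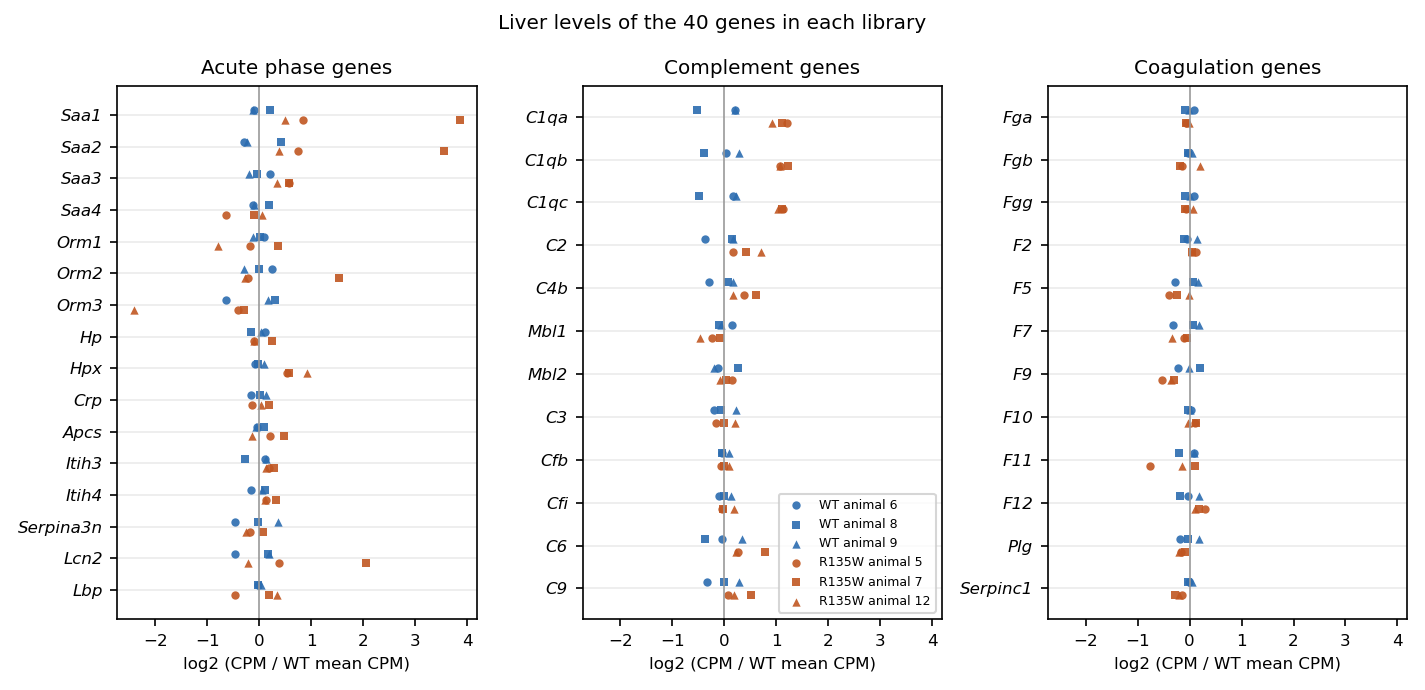
Level of each of the 40 genes in each liver library, as log2 of its CPM over the WT mean, in panels for acute phase, coagulation and complement genes (WT animals in blue, R135W animals in orange). The 3 C1q genes lie apart between genotypes, Saa1, Saa2, Orm2 and Lcn2 each have a single far point from R135W animal 7, and most other members cluster near 0.

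By edgeR's quasi-likelihood test with Benjamini-Hochberg adjustment over 13935 genes, 3 of the 40 members passed an adjusted p of 0.05 in liver. These are the C1q chains C1qa, C1qb and C1qc, all higher in R135W. Of all tested genes 3.28% passed (2.76% higher and 0.524% lower), and the 3 called members are neighbouring genes of 1 protein. At an unadjusted p under 0.05 stood 9 members, 22.5% against 17.6% of all genes, 8 of them higher (10.8% of all genes) and 1 lower (6.75%). The libraries of the genotypes lay fully apart for 11 members, 27.5% against 23.7% of all genes, with R135W above WT for 9 (13.8%) and below for 2 (9.98%). These last shares are near the background and single out no further members. The log2 fold change was above 0 for 26 members and below 0 for 14 (49.3% and 50.7% of all genes). Its median was 0.05 over the members and -0.01 over all tested genes.

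C1q, the recognition molecule of the classical pathway, is built from the A, B and C chains. Their genes lie side by side on the minus strand of chromosome 4 (mm10): C1qb from 136880145 to 136886177, C1qc from 136889802 to 136892914 and C1qa from 136895916 to 136898844. Because all 3 moved together and passed the test, the RefSeq sequences of the 250 bases before the start of C1qb (chr4:136886201-136886450, minus strand) and C1qc (chr4:136892915-136893164, minus strand) of GRCm38.p6 are shown. Capitals mark letters of an NF-kB type motif (GGGA, any 4 bases, then CC) on either strand, in C1qb as an overlapping pair of matches, one on each strand. C1qa had no entry in the promoter table.
C1qb: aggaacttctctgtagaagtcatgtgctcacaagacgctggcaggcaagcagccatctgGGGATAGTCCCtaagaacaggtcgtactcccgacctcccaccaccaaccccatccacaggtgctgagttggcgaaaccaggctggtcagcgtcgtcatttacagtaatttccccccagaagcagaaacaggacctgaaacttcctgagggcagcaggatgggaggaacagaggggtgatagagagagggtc
C1qc: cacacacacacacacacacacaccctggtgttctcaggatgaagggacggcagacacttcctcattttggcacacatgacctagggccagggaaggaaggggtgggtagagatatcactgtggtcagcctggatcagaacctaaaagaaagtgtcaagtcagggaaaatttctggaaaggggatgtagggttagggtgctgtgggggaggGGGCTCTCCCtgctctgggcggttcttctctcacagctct
This motif was found in 17.6% of 32851 promoter windows of the table, so a match in these windows is a description of their letters only. The sequences of the C1qb and C1qc windows were 62.0% identical over 208 aligned bases.

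C1qa was at 61.2, 37.0 and 60.9 CPM in the livers of WT animals 6, 8 and 9, and at 122, 115 and 99.5 CPM in R135W animals 5, 7 and 12. All R135W libraries lay above all WT libraries, and WT animal 8 was the lowest. Its log2 fold change was 1.08 (SE 0.19, adjusted p = 0.0241).

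C1qb was at 37.9, 28.0 and 45.0 in WT and 77.7, 85.9 and 77.6 CPM in R135W, in the same order of animals. The groups were again apart, with WT animal 8 lowest and R135W animal 7 highest. Its log2 fold change was 1.12 (SE 0.17, adjusted p = 0.0140).

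C1qc was at 52.7, 33.8 and 55.3 in WT and 103, 102 and 97.1 CPM in R135W. The R135W libraries lay close together and above every WT library. Its log2 fold change was 1.09 (SE 0.18, adjusted p = 0.0182). The sizes held when any 1 library was left out, from 0.87 to 1.19 for C1qa, 0.95 to 1.29 for C1qb and 0.90 to 1.22 for C1qc. The calls did not: without R135W animal 7 none of the 3 passed (adjusted p = 0.0747, 0.0535 and 0.0572 in edgeR's test). Without WT animal 9 only C1qb passed, and without R135W animal 5 C1qa did not.

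Most macrophage markers rose with the C1q genes. Of 14 Kupffer cell and macrophage markers 11 passed the test, all higher, with a median change of 1.07, and none was at 0 in liver. The scavenger receptor gene Cd163 had -0.46 (groups overlapping) and the phagocytic receptor gene Mertk -0.14 (every R135W library below every WT library), neither past the test. Their summed level was 381.7 to 551.1 in WT and 932.7 to 1012 CPM in R135W. Summed C1q was 137.3 ± 33.6 CPM (SD, n = 3) in WT and 293.1 ± 16.4 CPM (SD, n = 3) in R135W. The ratio of summed C1q to the summed markers was 0.2591 to 0.3236 in WT and 0.2739 to 0.325 in R135W, so the groups overlapped. Against Csf1r alone, the receptor of the macrophage growth factor CSF1, the ratio was 2.534 to 3.066 in WT and 2.914 to 3.102 in R135W, overlapping too. Of 6 monocyte markers 4 passed, all higher, and their median was 1.21. In whole tissue, more cells of a type and more RNA per cell cannot be told apart, and their parts in the C1q change were not tested.

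**Figure D2:**
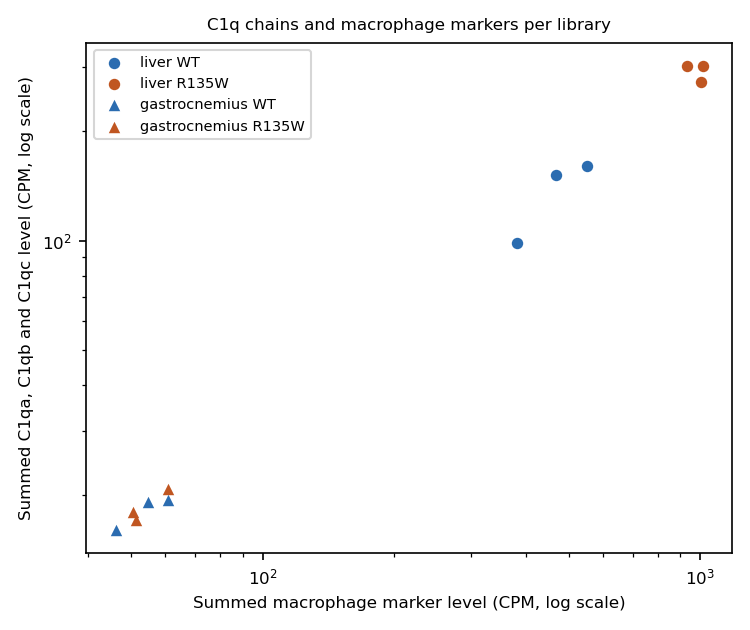
Summed level of C1qa, C1qb and C1qc against the summed level of 14 macrophage markers, in CPM on log axes, with 1 point per library (circles liver, triangles gastrocnemius, blue WT, orange R135W). The liver R135W points lie above and to the right of the liver WT points, while the gastrocnemius points of both genotypes mix at the lower left. CPM was scaled within each tissue separately.

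The other members of the classical and lectin pathways did not pass the test. C2, the serine protease of the C3 convertase, was at 73.1, 105 and 106 in WT and 107, 126 and 154 CPM in R135W. The groups were apart by a narrow margin, between the highest WT and the lowest R135W library, and the change was 0.44 (SE 0.19, adjusted p = 0.261 by edgeR's test). C4b, which supplies the other convertase subunit, was at 1205, 1548 and 1658 in WT and 1899, 2252 and 1640 CPM in R135W. R135W animal 12 fell within the WT range, and the change was 0.39 with an SE of 0.18 (adjusted p = 0.315). Of the 100-base windows of the C4b transcript 16.5% also occur in its near copy C4a, so its counts are uncertain to that extent. Larger shares of C2 (53.2%) and, below, Cfb (81.0%) occur in Gm20547, a gene model of the reference annotation that overlaps both genes on the same strand. In the annotation used for counting, no other gene shared exon bases with C2 or Cfb. These shares therefore do not measure an uncertainty of their counts. The mannose-binding lectins, which recognise microbial sugars, had changes of -0.25 (Mbl1, SE 0.14) and 0.03 (Mbl2, SE 0.16).

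C3 and the alternative pathway had no member past the test. C3, on which all pathways converge, was at 7811, 8545 and 10395 in WT and 8023, 8856 and 10241 CPM in R135W. The genotypes shared the same range, with a log2 fold change of 0.02. Its 95% interval, -0.41 to 0.45, reaches the values of C2 and C4b. Cfb, the protease of the alternative convertase, was at 1259 to 1372 in WT and 1236 to 1384 CPM in R135W, a change of 0.01 (95% interval -0.30 to 0.31). For Cfi, the protease that cleaves C3b, the change was 0.05 (95% interval -0.27 to 0.36). The membrane attack components C6 and C9 had changes of 0.44 (SE 0.21, adjusted p = 0.326) and 0.27 (SE 0.18, adjusted p = 0.497), with overlapping groups. Of the 12 complement members 11 had positive values, with a median of 0.33, where 49.3% of all tested genes did.

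Among complement genes outside the 40, those that passed include genes already counted above, Vsig4 with the macrophage markers and Itgax with the monocyte markers. Of 14 other components tested, 1 passed in liver: Cfp, the gene of properdin, which stabilises the alternative convertase, at 1.0 (SE 0.19, adjusted p = 0.0267). Of 17 regulators and receptors, 2 passed: Vsig4, a Kupffer cell receptor for C3 fragments, at 0.85 (adjusted p = 0.0166 by edgeR's test), and Itgax, the alpha chain of complement receptor 4, at 1.5 (adjusted p = 0.0219). The medians of these lists were 0.18 and 0.10. Leaving out 1 liver library left 0 to 2 calls over all lists outside the 40: none without R135W 7, only Vsig4 without WT 9, Cfp and Vsig4 without WT 6, Cfp and Itgax without WT 8, Itgax and Vsig4 without R135W 5, and Ifitm3 and Vsig4 without R135W 12.

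None of the 16 acute phase members passed the adjusted test in liver. At an unadjusted p under 0.05 stood 4 (Hpx, Saa1, Saa2 and Saa3), all higher, as did 10.8% of all tested genes. Of the 16 members 12 had positive values (49.3% of all genes), with a median of 0.20. The lowest p was that of Hpx, the plasma carrier of free haem. Hpx was at 2758, 2864 and 3074 in WT and 4180, 4291 and 5487 CPM in R135W. Every R135W library was well above every WT library. Its log2 fold change was 0.68 (SE 0.17, 95% interval 0.30 to 1.07, adjusted p = 0.0727), which did not pass edgeR's test and passed in DESeq2 (adjusted p = 0.000616). Hp, which binds haemoglobin, overlapped fully, at 2090 to 2507 in WT and 2167 to 2777 CPM in R135W, with a change of 0.03 (95% interval -0.35 to 0.41).

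The 2 largest fold changes among the members, those of Saa1 and Saa2, rested mostly on 1 animal. Saa1, Saa2, Orm2 and Lcn2 were the only members whose level in the liver of R135W animal 7 exceeded 1.5 times the next highest library. Saa1 and Saa2 encode the inducible serum amyloid A proteins of plasma, Orm2 an orosomucoid, and Lcn2 a lipocalin that binds bacterial siderophores. Since these 4 genes shared this pattern, the 250 bases before their starts are shown from RefSeq (GRCm38.p6): Saa1 at chr7:46742981-46743230 (minus strand), Saa2 at chr7:46751583-46751832 (plus strand), Orm2 at chr4:63362199-63362448 (plus strand) and Lcn2 at chr2:32387740-32387989 (minus strand). Capitals mark the C/EBP type motif TTGCNNAA, searched on both strands.
Saa1: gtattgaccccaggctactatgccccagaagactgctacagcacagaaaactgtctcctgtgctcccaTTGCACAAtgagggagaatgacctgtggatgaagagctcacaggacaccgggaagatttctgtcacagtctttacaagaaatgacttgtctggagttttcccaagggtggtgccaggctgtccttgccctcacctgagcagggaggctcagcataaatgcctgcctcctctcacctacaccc
Saa2: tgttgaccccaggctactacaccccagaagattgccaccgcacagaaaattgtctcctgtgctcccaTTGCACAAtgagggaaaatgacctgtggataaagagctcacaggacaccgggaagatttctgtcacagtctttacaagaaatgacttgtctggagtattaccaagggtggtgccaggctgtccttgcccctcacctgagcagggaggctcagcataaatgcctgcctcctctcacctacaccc
Orm2: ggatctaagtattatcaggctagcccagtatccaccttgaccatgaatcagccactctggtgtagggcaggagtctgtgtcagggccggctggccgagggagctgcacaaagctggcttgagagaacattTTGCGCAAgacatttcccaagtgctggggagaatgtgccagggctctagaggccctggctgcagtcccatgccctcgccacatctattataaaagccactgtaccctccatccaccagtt
Lcn2: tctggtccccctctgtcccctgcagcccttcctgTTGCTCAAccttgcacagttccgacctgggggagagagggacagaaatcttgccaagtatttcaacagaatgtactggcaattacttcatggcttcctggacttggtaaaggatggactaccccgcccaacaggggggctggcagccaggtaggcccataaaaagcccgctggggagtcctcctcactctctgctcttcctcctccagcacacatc
Each of the 4 windows held 1 match. It lay at -182 to -175 from the start in Saa1, -183 to -176 in Saa2, -120 to -113 in Orm2 and -216 to -209 in Lcn2. The Saa1 and Saa2 genes point away from each other and their windows were 95.6% identical (238 of 249 aligned bases).

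Promoter windows were found for 31 of the 40 members. The C/EBP type motif was present in 14 of them (45.2%), against 9.56% of all 32851 windows. These 14 also include C3, C9, F9, F11, Fga, Fgb and Hpx, whose levels showed no such excess in animal 7, so the motif was not limited to the genes with that pattern. The STAT motif TTCNNNGAA was in 5 of 31 windows (16.1%, all windows 7.02%) and the NF-kB type motif in 6 (19.4%, all windows 17.6%). The interferon response motif (TTTC, any 2 bases, then TTTC) was in 2 windows (Saa3 and Saa4, all windows 2.98%), and the HNF1 motif (TTAAT and ATTAA around any 1 base) in 0 (all windows 0.116%).

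Saa1 was at 16.5, 20.3 and 16.2 CPM in WT animals 6, 8 and 9 and at 31.6, 258 and 24.8 CPM in R135W animals 5, 7 and 12. Animal 7 was 8.19 times the next highest library, and the other R135W livers also lay above all WT livers. The log2 fold change was 2.57 (SE 0.81, adjusted p = 0.146 by edgeR's test) and 0.67 without animal 7. With age as a covariate it was 1.61, and in the fit of all 12 libraries the gene passed (adjusted p = 0.0392).

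Saa2 was at 8.86, 14.5 and 9.27 in WT and 18.3, 128 and 14.1 CPM in R135W. Animal 7 stood at 6.98 times the next library, and R135W animal 12 lay within the WT range. The log2 fold change was 2.29 (SE 0.77, adjusted p = 0.170) and 0.57 without animal 7. None of the 100-base windows of the Saa1 and Saa2 transcripts occurs in another gene, although the transcripts are 94.4% identical where aligned.

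Orm2 was at 24.2, 20.2 and 16.5 in WT and 17.5, 59.1 and 16.8 CPM in R135W. Lcn2 was at 5.41, 8.40 and 8.54 in WT and 9.76, 30.9 and 6.45 CPM in R135W. In both genes only animal 7 left the range of the rest by a wide margin, at 2.45 and 3.17 times the next library. The log2 fold changes were 0.61 for Orm2 (SE 0.45, adjusted p = 0.530) and 1.06 for Lcn2 (SE 0.52, adjusted p = 0.331). Without animal 7 that of Lcn2 was 0.11.

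No other acute phase member reached 1.5 times the next library in animal 7. It was still the highest liver library for Orm1, Hp, Crp, Apcs, Itih3 and Itih4, at 1.04 to 1.21 times the next. Orm1, the most abundant orosomucoid, was at 722, 687 and 629 in WT and 597, 870 and 391 CPM in R135W, so animal 7 was highest but by less than 1.5 times. Orm3 was lowest in R135W animal 12, at 2.87 CPM against 9.86 to 18.9 CPM in the other 5 livers, a change of -0.78 that did not pass the test (SE 0.47, adjusted p = 0.434). The 3 orosomucoid transcripts are 86.5% to 91.0% identical, and Orm1 and Orm2 share 6.95% of their 100-base windows. Saa3, the serum amyloid gene known from macrophages and fat, was at 2.59 to 3.40 in WT and 3.76 to 4.43 CPM in R135W, apart but not past the test (0.50, SE 0.19, adjusted p = 0.212). Saa4, the constitutive member, had a value of -0.20 (SE 0.19). The pentraxins Crp and Apcs, pattern recognition proteins of plasma, had values of 0.03 and 0.20, with overlapping groups. Itih3 and Itih4, of the inter-alpha-trypsin inhibitor heavy chain family, had 0.20 and 0.19, and their groups were apart by a narrow margin. The protease inhibitor Serpina3n and the endotoxin carrier Lbp had -0.11 and 0.06.

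**Figure D3:**
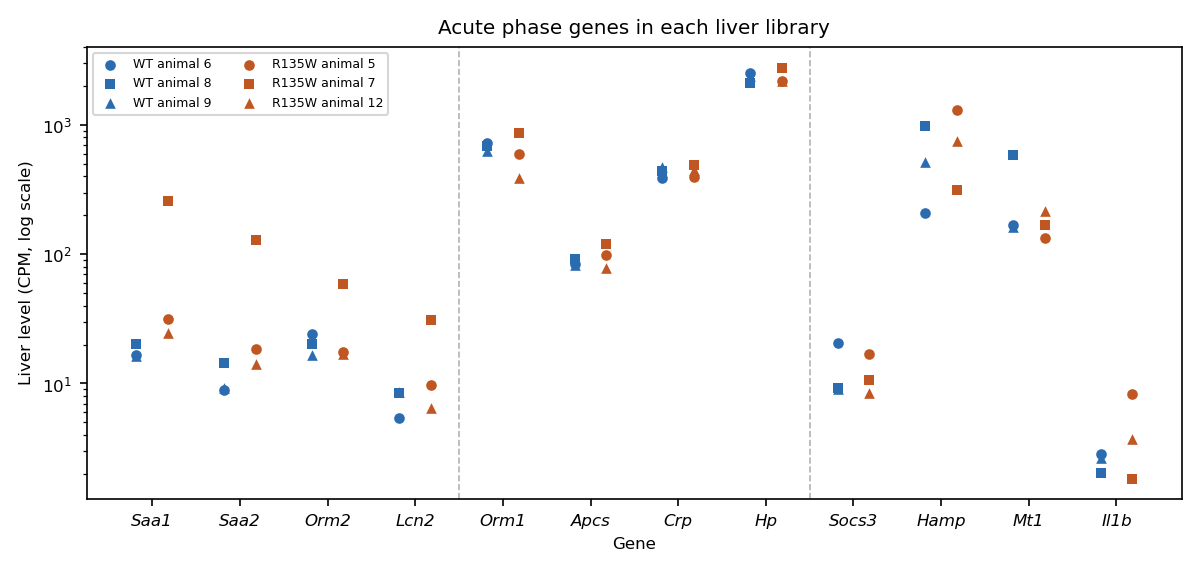
CPM on a log axis in each of the 6 liver libraries, for the 4 members high in R135W animal 7 (left), 4 acute phase members with no such excess (middle) and 4 genes outside the 40 (right). R135W animal 7 is far above the rest for Saa1, Saa2, Orm2 and Lcn2, and is not the highest library for Socs3, Hamp, Mt1 or Il1b. The 4 outside genes are a hand-picked selection, and others not shown, such as Fgl1, Ngp and Ltf, were highest in animal 7.

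Genes outside the 40 that the same cytokines induce were mixed in that liver. Fgl1, a fibrinogen-like gene induced by interleukin-6, was highest in animal 7, at 579.9 CPM or 1.11 times the next library. Socs3, the feedback inhibitor induced by STAT3, was at 10.6 CPM in animal 7 and highest in WT animal 6, at 20.5 CPM. The iron hormone gene Hamp was at 314 CPM in animal 7 against 1315 CPM in R135W animal 5, and the interleukin-1 gene Il1b at 1.84 against 8.32 CPM in the same libraries. Most neutrophil markers were highest in animal 7, all at low levels. Ngp was highest there at 2.32 CPM, 3.46 times the next library, as was Ltf at 1.55 CPM, 4.23 times. S100a8, S100a9, Camp and Mpo were also highest there, at 1.75, 1.85, 2.77 and 2.45 times the next library. Elane (0.339 CPM), Cxcr2 and Retnlg were not highest there. Of 4 neutrophil markers tested 0 passed edgeR's test and 3 were higher at an unadjusted p under 0.05 (10.8% of all genes). For all 4 every R135W library lay above every WT library (13.8% of all genes). The summed level of the 9 neutrophil markers was 1.82 to 4.21 in WT and 5.75 to 13.8 CPM in R135W, 7 of them below 1 CPM on average. Their part in the Lcn2 and Saa values, and that of the Rn45s share of this library, was not tested. WT animal 9, of the same age as animal 7 (7.4 weeks), had 16.2 CPM of Saa1.

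Lists of acute phase genes outside the 40 gave 1 call in liver by edgeR's test and 4 by DESeq2 (Cd14, Ifitm3, Pon1 and Serpina1a). For the counts below, 17.6% of all tested genes stood at an unadjusted p under 0.05 (10.8% higher and 6.75% lower). Negative values were found for 50.7% of them. Of 19 other acute phase genes Ifitm3, an antiviral membrane protein that interferon also induces, passed at 0.76 (SE 0.13, adjusted p = 0.0234 by edgeR's test). The list median was -0.32. At an unadjusted p under 0.05 stood 6 of its genes, 3 higher, among them the endotoxin coreceptor Cd14 at 1.02, and 3 lower, all of the Serpina1 antitrypsin family. None of 12 negative acute phase genes passed edgeR's test, 3 were lower at an unadjusted p under 0.05, and 9 had negative values. The lowest p among them was that of Pon1, a paraoxonase of HDL, at -0.68 (adjusted p = 0.0850), which DESeq2 called. None of 16 receptors and signalling genes, 16 transcription factors or 5 tested cytokines passed, and 2, 3 and 2 of them stood at an unadjusted p under 0.05. The lowest adjusted p among the cytokines were those of Clcf1, a ligand of the interleukin-6 family, at 1.10 (adjusted p = 0.0732) and Tnf at 2.50 (adjusted p = 0.0918). The Tnf value rests on 2, 4 and 0 counts in WT and 16, 13 and 14 counts in R135W. Of 12 hepatocyte markers 0 passed, 2 were lower at an unadjusted p under 0.05 and 10 were negative (median -0.24).

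Of the 12 coagulation genes 0 passed edgeR's test and 1, lower, stood at an unadjusted p under 0.05 (6.75% of all genes). Of the 12 genes 9 had negative values (50.7% of all genes) and the median was -0.10. The fibrinogen chains, which form the clot and which the acute phase response raises, overlapped between genotypes. Fga was at 3723 to 4190 in WT and 3742 to 3883 CPM in R135W. Fgb was at 3686 to 3900 and 3321 to 4320 CPM, and Fgg at 2894 to 3271 and 2883 to 3219 CPM. The changes were -0.05, -0.03 and -0.03, with 95% intervals that together ran from -0.41 to 0.34.

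F9, clotting factor IX, was the 1 coagulation member at an unadjusted p under 0.05. It was at 162, 216 and 188 in WT and 130, 153 and 147 CPM in R135W. All R135W libraries lay below all WT libraries, by a margin smaller than the spread within either group. The change was -0.40 (SE 0.14, adjusted p = 0.193 by edgeR's test).

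Serpinc1, the gene of antithrombin, was at 2579, 2524 and 2666 in WT and 2340, 2130 and 2237 CPM in R135W. The groups were apart, with a change of -0.21 (SE 0.14, adjusted p = 0.476). Prothrombin (F2) and factors X (F10) and XII (F12) had values of 0.07, 0.07 and 0.20, and factors V (F5), VII (F7) and XI (F11) had -0.21, -0.15 and -0.23. Plasminogen (Plg), the precursor of the protease that dissolves clots, had -0.16. Outside the 40, 0 of 11 other coagulation factors passed, 0 at an unadjusted p under 0.05. Of these 11, 10 had negative values (50.7% of all genes), with a median of -0.12. Of 14 anticoagulant and fibrinolysis genes 0 passed and 3 stood at an unadjusted p under 0.05 (17.6% of all genes). Among these 3 was Plau, the urokinase gene, at 0.86 (adjusted p = 0.138).

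In gastrocnemius the members were near the limit of detection. They took 0.00870% to 0.0120% of counts, 30 of them averaged under 1 CPM in both genotypes, and 13 had enough counts to be tested. F11 had 0 counts in 157399852 over the 6 muscle libraries, which allows up to 0.0191 CPM (counting error only). The liver transcripts Fga, Fgb, Plg and Serpinc1 were highest in the muscle of R135W animal 12, at 1.67, 1.59, 0.852 and 0.963 CPM. The albumin gene Alb was also highest there, at 28.6 CPM against 0.248 to 5.00 CPM in the other 5 muscle libraries, and the part of hepatocyte RNA in these values was not tested.

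By edgeR's test 0 of the 13 members passed in gastrocnemius, where 0.875% of 13826 genes did. At an unadjusted p under 0.05 stood 2 members, 15.4% against 11.5% of all genes, both lower (4.91% of all genes). DESeq2 called 1 (C3) and limma-voom 0. C3 was at 53.7, 48.9 and 42.0 in WT and 40.8, 33.7 and 32.2 CPM in R135W. The groups were narrowly apart, the change being -0.44 (SE 0.11, adjusted p = 0.145 in edgeR and 0.0135 in DESeq2). Serpina3n was at 2.03, 1.46 and 1.25 in WT and 0.874, 0.850 and 0.963 CPM in R135W. The change was -0.81 (SE 0.24, adjusted p = 0.207).

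The C1q genes, higher in R135W liver, did not pass the test in muscle. Their muscle values were 0.06 for C1qa, 0.14 for C1qb and -0.09 for C1qc (adjusted p = 0.92, 0.74 and 0.86). Summed C1q in muscle was 18.2 ± 1.86 in WT and 18.6 ± 1.94 CPM in R135W (SD, n = 3 each), at 0.3177 to 0.3493 and 0.3326 to 0.3544 of the summed macrophage markers. The genotype change in gastrocnemius minus that in liver was -1.01 for C1qa (SE 0.26, adjusted p = 0.181), -0.97 for C1qb (SE 0.22, adjusted p = 0.124) and -1.17 for C1qc (SE 0.23, adjusted p = 0.0893). None passed edgeR's interaction test, in which 0.130% of 15414 genes passed. Of the 13 members tested in both tissues 0 passed it, and 3, the C1q genes, stood at an unadjusted p under 0.05 (9.95% of all genes). DESeq2 called the C1q genes and Serpinc1. Serpinc1 had too few counts to be tested in muscle, where it was at 0.963 CPM in R135W animal 12 and 0.0710 to 0.296 CPM in the other libraries. On simulated data the interaction test recovered 51% of 2-fold changes, in genes above a floor on mean count.

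**Figure D4:**
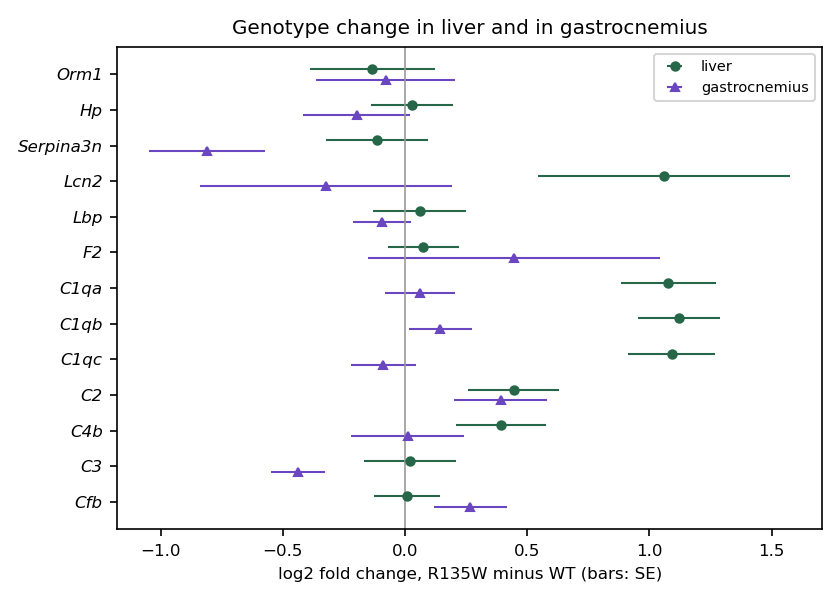
Log2 fold change of R135W minus WT with its SE, for the 13 members tested in both tissues (circles liver, triangles gastrocnemius). The C1q genes lie near 1.1 in liver and near 0 in gastrocnemius, and C3 and Serpina3n lie below 0 in gastrocnemius.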

How the data were processed

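Each library is 1 tissue of 1 animal. The deposited files hold raw counts: per the file headers, the authors counted read pairs over exons per gene symbol (UCSC mm10) with featureCounts 1.5.2, primary alignments only, without a strand option, so that a fragment over several genes counts for each. Alignment used STAR 2.4.0, per the submitters' processing notes. No normalisation or pooling was applied.

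Genotype was tested within each tissue with edgeR 4.0.16 (TMM, filterByExpr, quasi-likelihood F test, Benjamini-Hochberg over all tested genes), and the tissue difference as an interaction over 12 libraries. SE is the log2 fold change over the square root of F. Same-numbered libraries were read as the same animal because their ages agree. Their deviations correlated at only -0.00619 to 0.103 between tissues. Replicates differed beyond counting error. Total counts of 20751583 to 30460237 limit precision for the rarest members in liver and for most members in muscle. On simulated data 100 genes were changed at each size, drawn only from genes above a floor on mean count. The tests recovered 85% of 2-fold and 98% of 4-fold changes in liver (13935 genes). They recovered 95% and 100% in gastrocnemius (13826) and 51% and 87% for the tissue difference (15414). Of their calls 6.63%, 11.4% and 2.13% were false. The recovered shares do not cover genes of low count. DESeq2, limma-voom, RLE factors, other filters, age, a fit of all libraries and leaving out each library were tried. Members, lists and the rule for fully described genes were chosen with earlier results of these data known. The rule took members called or at an unadjusted p under 0.05 and, in liver, the member of each role group with the largest absolute change. The text departs from it: Apcs and Itih3 are given more briefly, and Orm2 and C4b more fully. Promoters are from RefSeq tables; protein sequences were not used here.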

Additional observations from a re-analysis of the deposited data

How the results depend on the processing

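The count of 3 members called in liver was the same with RLE factors, limma-voom, either filter and age as a covariate, and was 4 in DESeq2 and in the fit of all 12 libraries; leaving out 1 library gave 0 to 3. In gastrocnemius the count was 0 (DESeq2 1, leaving out 1 library 0 to 0), and for the difference between tissues 0 (DESeq2 4, leaving out 1 library 0 to 0). With the animal as a replicate block the difference was called for 0 members, and C1qc stood at -1.21 (adjusted p = 0.0929 in edgeR), so the pairing changed no call. The lists outside the 40 gave 4 calls of 122 in liver, 7 in DESeq2 and 0 to 2 with 1 library left out. The cause of these differences was not tested. Over all genes 457 were called in liver, 781 in DESeq2, 1057 in the fit of all 12 libraries and 84 to 285 with 1 library left out, which tests fewer samples. The members' share of liver counts without the 5 most abundant genes of each library averaged 4.84% in WT and 5.14% in R135W, with C3 left out in R135W 12 only, so these means cover different genes. The log2 ratio of C1q to macrophage markers differed by 0.04 between genotypes as sums, by 0.12 as means of log2 levels and by 0.14 against Csf1r alone, alternatives chosen after seeing the data. Cfi changed sign without WT 6 or without R135W 12 (-0.011 and -0.028, range over the left-out libraries -0.028 to 0.11). Of 284 values of single genes under the alternatives, 270 kept their direction and side of the threshold. Depth limits Tnf, the neutrophil genes and most members in muscle.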

Other observations

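In gastrocnemius, 3 genes of the pathway lists outside the 40 passed edgeR's quasi-likelihood test. Il6ra, the receptor subunit that binds interleukin-6, fell by 0.97 on the log2 scale (adjusted p = 0.0306). Vtn, the gene of vitronectin, a plasma inhibitor of the membrane attack complex, rose by 0.54 (adjusted p = 0.0369), and Ifitm3 rose by 0.76 (adjusted p = 0.0369). In liver, Il6ra ranged from 24.4 to 67.6 CPM, with both extremes in R135W animals 5 and 12.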
